A study of Rattus norvegicus with 6 samples.

Results

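Transcripts of 2 genes, Mmp12 and Spp1, were described in the esophagus of injured and untreated rats, out of 32623 genes in the count table. They were taken by their Ensembl identifiers, ENSRNOG00000030187 for Mmp12 and ENSRNOG00000043451 for Spp1. Both were chosen by measured values of these libraries, namely the difference between injured and control animals and the likeness of the genes over the injured animals. The table holds identifiers alone, so the symbols rest on that choice and were not checked against the deposited data.

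The study models esophageal stricture, in which a scarred esophagus becomes narrow. All 6 animals were male wild-type Sprague-Dawley rats, an outbred laboratory strain, aged 8 to 10 weeks, and each gave 1 library of polyadenylated RNA from the full thickness of the organ. In the 3 injured animals a 3D-printed device was passed through the mouth to a depth of 9 to 10 cm and moved back and forth 8 to 10 times. The 3 controls were untreated, and no sham passage of the device is described for them. Tissue of both groups was taken on day 28. Libraries held 14181903 to 18376578 counts, and injured replicate 1 was the deepest of them. On the first principal component of the 500 most variable genes, control replicate 2 lay farthest from the injured libraries. Its score was -51.9, against -15.8 and -17.0 for the other controls and 21.6 to 32.0 for injured libraries. Its mean Spearman correlation with the other controls was 0.950, near the 0.954 of control replicate 1 and below the 0.968 of control replicate 3. The tissue's own cell markers, and those of macrophages, were not analysed here, because 0 of the 47357 genes in the reference table carried an Ensembl identifier. In whole tissue, more cells of a type and more RNA per cell cannot be told apart.

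Mmp12 encodes macrophage metalloelastase, a secreted zinc-dependent protease that cuts elastin and other matrix proteins and is made mainly by macrophages. Spp1 encodes osteopontin, a secreted phosphoprotein that binds integrins and CD44 on the cell surface and is made by macrophages and by bone, epithelial and other cells. Both are known from wound repair and from fibrosis in several organs, Mmp12 as an enzyme acting on the matrix and Spp1 as a matrix-bound and soluble ligand. They are not related by sequence family. In the GRCr8 assembly Mmp12 lies on chromosome 8 in a run of metalloproteinase genes, between Mmp13 and Mmp1b, with Mmp3, Mmp1, Mmp10, Mmp8, Mmp27 and Mmp20 following. Spp1 lies on chromosome 14 between Pkd2 and Mepe, and Mepe, Ibsp, Dmp1 and Dspp on that side encode the other secreted phosphoproteins of its family. The identifiers of these neighbours were not matched, so their counts are not analysed here.

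The stretch of 250 bases before the transcript start is shown for both genes as a description. Their likeness over the injured animals was part of the choice, and shared regulation was not tested. The sequences come from RefSeq in the GRCr8 build, and both genes had an entry. The counts were made on Rnor_6.0, so no coordinate is shared between the counts and these stretches. Mmp12 is read on the plus strand at chr8:12866402-12866651 and Spp1 on the minus strand at chr14:5619805-5620054. Capitals mark matches, on either strand, to TGANTCA (the AP-1 element), TATAAA (the TATA box), CACGTG (an E-box) and TGTGGT or TGCGGT (the RUNX element). These motifs do not overlap each other here and were picked with the sequences in view.
Mmp12: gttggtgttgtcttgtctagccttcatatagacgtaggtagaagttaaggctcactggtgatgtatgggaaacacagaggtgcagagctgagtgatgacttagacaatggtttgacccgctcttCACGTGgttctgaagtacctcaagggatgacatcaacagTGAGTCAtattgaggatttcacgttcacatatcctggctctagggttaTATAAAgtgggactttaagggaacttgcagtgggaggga
Spp1: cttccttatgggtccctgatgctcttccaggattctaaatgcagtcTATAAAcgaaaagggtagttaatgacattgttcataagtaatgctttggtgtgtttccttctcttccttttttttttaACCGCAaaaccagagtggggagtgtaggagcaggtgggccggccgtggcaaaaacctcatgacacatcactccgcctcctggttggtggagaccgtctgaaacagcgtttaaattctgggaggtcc

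The Mmp12 stretch held 3 matches. TATAAA lay at bases -39 to -34 from the transcript start, TGANTCA at -87 to -81 and CACGTG at -126 to -121. The Spp1 stretch held 2 matches, TATAAA at -204 to -199 and, on the opposite strand, TGCGGT at -126 to -121. The TATA letters were therefore the only ones of these motifs that both stretches held, at different distances from the start. Among 33469 RefSeq promoters of the same length, TATAAA was found in 12.9%, TGANTCA in 6.34%, CACGTG in 5.59% and either RUNX spelling in 19.0%. A match is a run of letters and was not tested as a site of binding.

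**Figure D1:**
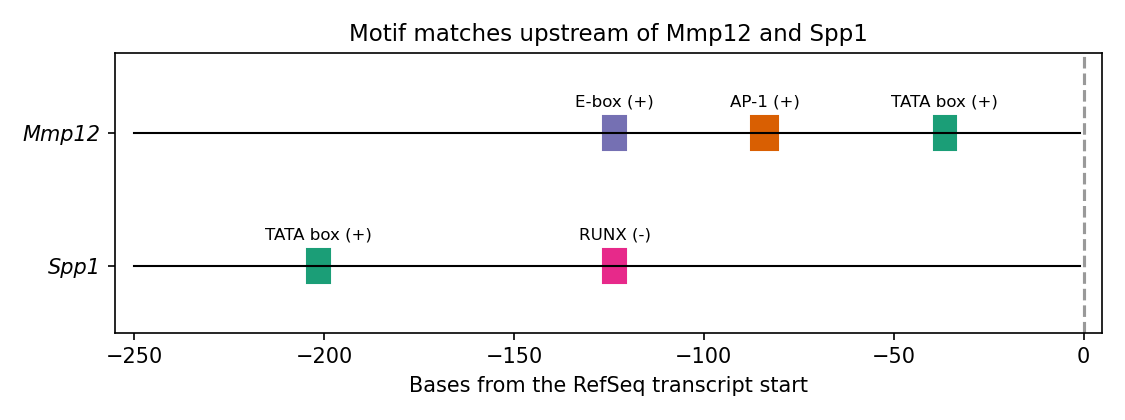
Positions of motif matches in the 250 bases before the RefSeq transcript start (dashed line) of Mmp12 and Spp1; the horizontal axis is distance in bases, boxes are matches to scale, and the sign in parentheses is the strand of the match relative to the gene. Mmp12 has 3 matches, 1 of them a TATAAA at -39 to -34, and Spp1 has 2, with its TATAAA at -204 to -199.

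Mmp12 was almost silent in the uninjured esophagus. Control replicates 1, 2 and 3 had 0, 0 and 6 counts, or 0, 0 and 0.433 CPM (the count per fixed library size, after scaling by trimmed mean of M-values). A count of 0 allows up to 3 counts by a 1-sided limit, which is 0.180 CPM in control replicate 1 and 0.168 CPM in control replicate 2. By the 2-sided rule used next for the 6 counts, these limits are 0.221 and 0.206 CPM. The 6 counts of control replicate 3 have an exact Poisson 95% interval of 0.159 to 0.942 CPM. That interval covers counting error only and includes all of these limits. Overlap of such limits does not decide whether control replicate 3 exceeded the other controls beyond counting error, and that was not tested. Injured replicates 1, 2 and 3 had 284, 5157 and 2482 counts, or 15.1, 313 and 145 CPM. Every injured library lay above every control, and the lowest injured library was still far below the other two.

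Spp1 had a low level in every control. Control replicates 1, 2 and 3 had 15, 64 and 29 counts, or 0.900, 3.57 and 2.09 CPM. The counting intervals of control replicates 1 and 2, 0.504 to 1.48 CPM and 2.75 to 4.56 CPM, did not overlap, so these animals differed by more than counting error. The highest control was replicate 2, the library farthest from the injured ones on the first principal component. Injured replicates 1, 2 and 3 had 650, 5229 and 2832 counts, or 34.6, 318 and 166 CPM. Again every injured library lay above every control, with replicate 1 the lowest and replicate 2 the highest. The controls had the same order by replicate number for Spp1, but for Mmp12 the highest control was replicate 3. Whether the order is shared was not tested.

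**Figure D2:**
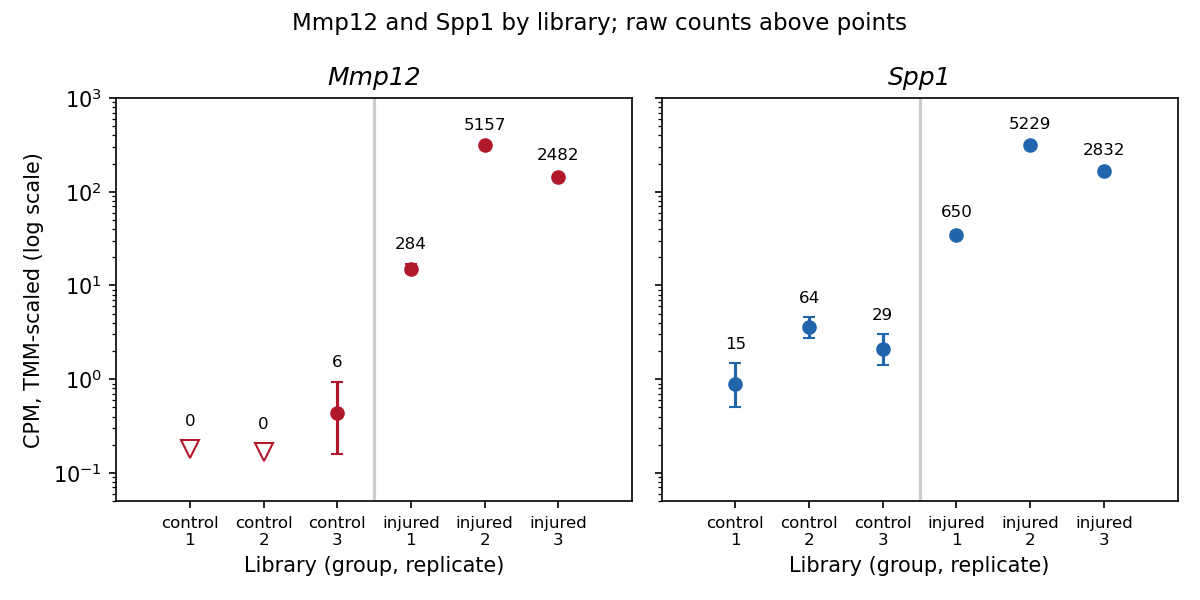
CPM of Mmp12 and Spp1 in each library on a log axis, with raw counts printed above the points; bars are exact Poisson 95% intervals of the count, hidden by the point where narrow, and open triangles mark a count of 0 at the limit of 3 counts. Both genes are higher in all 3 injured libraries than in any control, and injured replicate 1 is the lowest injured library for both.

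The control mean of Mmp12 was 0.144 ± 0.250 CPM and its injured mean was 158 ± 149 CPM (SD, n = 3 each). The control mean of Spp1 was 2.19 ± 1.34 CPM and its injured mean was 173 ± 142 CPM (SD, n = 3 each). Log2 fold changes of injured over control were 10.21 with a standard error of 1.61 for Mmp12 and 6.29 with a standard error of 0.96 for Spp1. These were place 2 and place 15 from the top among 14481 tested genes. Counts were also summed over each group and divided by library size scaled by trimmed mean of M-values. These sums were 1223 times higher for Mmp12 (exact 95% counting interval 561 to 3333) and 74.7 times higher for Spp1 (61.8 to 91.1). The Mmp12 ratio rests on the 6 counts of a single control. The uncertainty between animals is much wider than these counting intervals, as the standard errors show.

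Single libraries moved the summed ratios. For Mmp12 the ratio was 802 without control replicate 1, 771 without control replicate 2, 1838 without injured replicate 1 and 623 without injured replicate 2. Without control replicate 3 the remaining controls had 0 counts, and Mmp12 was at least 1745-fold higher against a floor of 3 counts over those 2 libraries. That bound covers counting error of the controls only and leaves out the spread between animals. For Spp1 the ratio was 116 without control replicate 2 and 43.6 without injured replicate 2. Against the mean of the controls, single injured libraries ranged from 15.8-fold to 145-fold for Spp1. For Mmp12 they ranged from 105-fold to 2171-fold, with the same reliance on the 6 counts.

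Both genes were among the genes called higher in injured animals by edgeR's quasi-likelihood test, at a Benjamini-Hochberg adjusted p under 0.05. That rule called 0.711% of tested genes higher, 103 genes, and 0.642% lower, 93 genes. With the replicate number as a block it called 287 higher and 259 lower, and with scaling by library size alone 129 and 67. Groups with every injured library above every control were found in 13.5% of tested genes. The same contrast chose Mmp12 and Spp1, so their calls and the separation of their groups are a description and carry no test here. Each call was lost without control replicate 1, 2 or 3 and without injured replicate 2 or 3, and kept without injured replicate 1. On all 6 libraries limma-voom also lost both.

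Injured animals differed widely in both transcripts. Mmp12 was 20.7 times and Spp1 9.17 times higher in injured replicate 2 than in injured replicate 1. Replicate 3 stood between them, 9.61 times and 4.79 times above replicate 1. The SD of log2 CPM over the injured animals was 2.27 for Mmp12 and 1.64 for Spp1, against a median of 0.19 over all tested genes. By that SD Mmp12 was place 16 and Spp1 place 47 of 14481 genes. Among controls the SDs were 1.28 and 0.94, against a median of 0.25, and came from few counts. Injured replicate 1, where both genes were lowest, had the largest total count of the 6 libraries, and the part of depth was not tested.

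The order of the injured libraries, with replicate 1 lowest and replicate 2 highest, was shared by many genes. It was found in 3714 of 14481 tested genes, or 25.6%, and in 44 of the 103 genes called higher. Few genes had a range as wide. On the log2 scale the highest and lowest injured libraries were 4.36 apart for Mmp12 and 3.19 apart for Spp1. Counting the gene itself, 12 tested genes were at least as wide as Mmp12 and 43 at least as wide as Spp1, 5 and 19 of them with this order. At a lower limit of 4-fold there were 270 genes, or 1.86% of those tested, and 129 of them had this order. Among the genes called higher 9 passed that limit, Mmp12 and Spp1 included, and all 9 had this order. Replicate 1 was the lowest injured library in 22 of the 31 genes called at least 8-fold higher (71.0%) and in 54 of the 103 genes called higher (52.4%). The same was true of 38.0% of all tested genes and 36.6% of the genes called lower. What set replicate 1 apart was not tested.

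**Figure D3:**
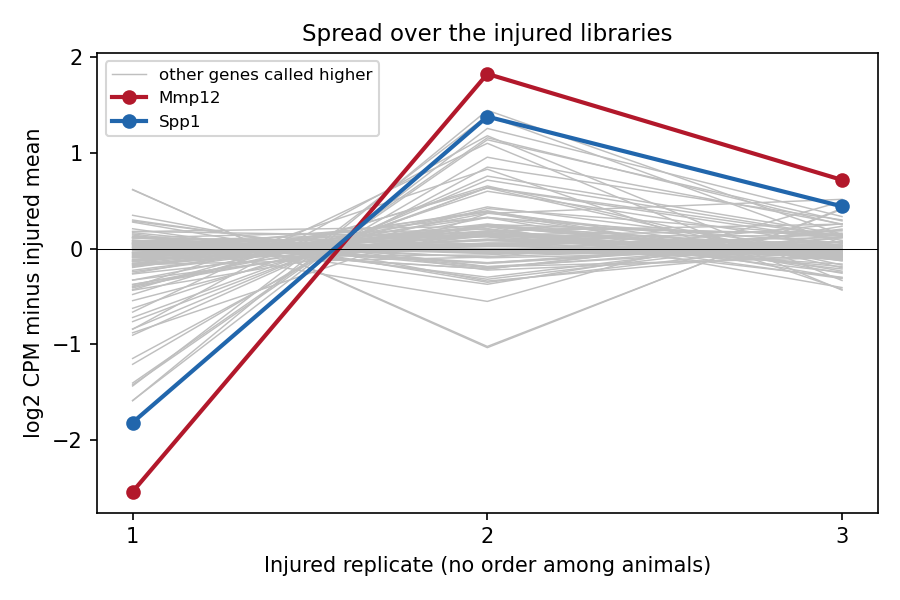
Log2 CPM minus the mean of the 3 injured libraries, by injured replicate, for Mmp12, Spp1 and the other genes called higher (grey); lines join the values of a gene and imply no order among animals. Mmp12 runs from -2.54 to 1.82 and Spp1 from -1.82 to 1.38, outside most of the grey lines.

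The ratio between the genes also changed with the library. Because transcript lengths were not used, counts of Mmp12 and Spp1 are not compared as levels, and only the change of their ratio over libraries is read. Of the summed Mmp12 and Spp1 counts, Mmp12 made up 30.4% in injured replicate 1 (284 of 934, exact Clopper-Pearson 95% interval 27.5% to 33.5%). It made up 49.7% in injured replicate 2 (5157 of 10386, 48.7% to 50.6%) and 46.7% in injured replicate 3 (2482 of 5314, 45.4% to 48.1%). The Mmp12 share was thus lowest where both transcripts were lowest, and none of these 3 intervals overlapped. The ratio of Mmp12 to Spp1 counts was 2.26 times higher in injured replicate 2 than in injured replicate 1.

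In controls the Mmp12 share was 0 of 15 counts in replicate 1, 0 of 64 in replicate 2 and 6 of 35 in replicate 3. Their exact 95% intervals reached up to 21.8%, 5.60% and 33.6%. Only the interval of control replicate 3 (from 6.56%) reached into that of injured replicate 1. In control replicates 1 and 2 the share was below that of every injured library beyond counting error. With 3 animals per group, and groups that lie apart, no correlation between the genes is given.

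Likeness over the injured animals was measured as the root mean square difference of log2 CPM, each gene centred on its injured mean. Spp1 lay 0.52 from Mmp12, against a median of 1.85 for all tested genes, and was place 11 of 14480 by nearness to Mmp12. This likeness was part of the choice of the pair, so it is a description and carries no test. Because Mmp12 varied widely, any gene that varied little lies far from it, which sets the median. The distance is the same in both directions, but the place is not. Seen from Spp1, Mmp12 was place 104, with a median of 1.34 for all tested genes. The 10 genes nearer to Mmp12 than Spp1 had mean expression of 0.724 to 70.9 CPM, and 6 of them lay above all controls in every injured library, as did 13.5% of all tested genes. By edgeR 0 of these 10 were called higher at an adjusted p under 0.05. At an unadjusted p under 0.05 (edgeR) 7 were higher and 1 was lower, against 9.98% and 11.4% of all tested genes. DESeq2 called 6 of them higher, against 4.70% of its tested genes, and limma-voom 0, against 0.380%. Their log2 fold changes ran from -5.80 to 9.83. Of the 103 genes nearer to Spp1 than Mmp12, 7 were called higher by edgeR (0.711% of all tested genes) and 42 lay above all controls in every injured library (13.5%). Both sets of nearer genes were picked by wide injured profiles, whereas the median range of tested genes was 0.36 on the log2 scale. A gene can also pass the filter through its injured counts alone. The shares of all tested genes are therefore not a like baseline, and no enrichment is read from them.

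By shape alone more genes lay nearer to each member than the other member did. The 2 shapes themselves were alike, with centred values in replicates 1, 2 and 3 of -2.54, 1.82 and 0.72 for Mmp12. For Spp1 they were -1.82, 1.38 and 0.44. The later places below therefore do not show that the shapes differ. When every profile was scaled to the same length, so that only its shape counted, Spp1 was place 329 by nearness to Mmp12 and Mmp12 place 327 by nearness to Spp1. Without injured replicate 1, Spp1 was place 230 from Mmp12. These places describe 3 libraries and have no error over animals.

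**Figure D4:**
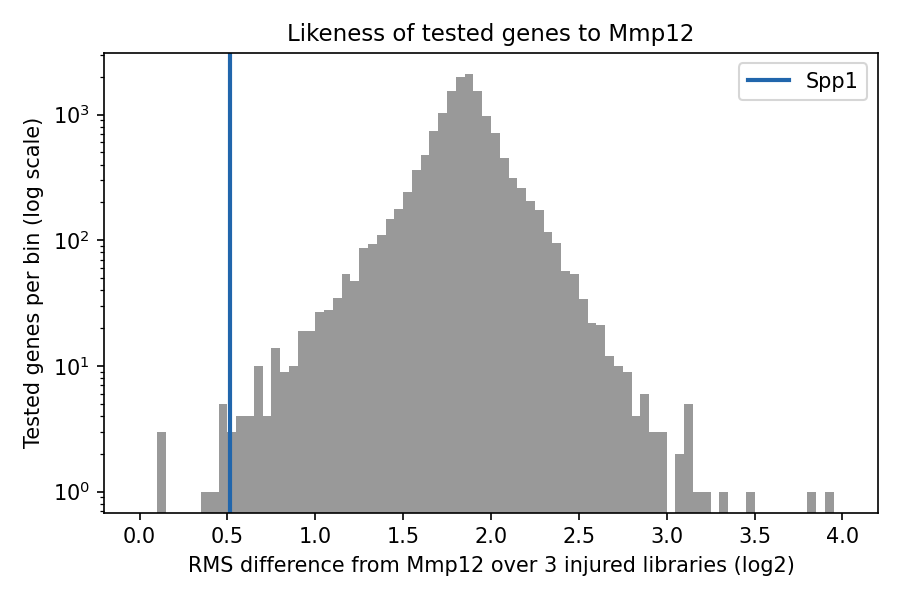
Histogram of the root mean square difference in centred log2 CPM between Mmp12 and every other tested gene over the 3 injured libraries, with the number of genes on a log axis; the blue line marks Spp1. Spp1 lies at 0.52, in the left tail and below the median of 1.85, with 10 genes nearer.

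Over all 6 libraries the gene nearest to Mmp12 was ENSRNOG00000059050, at a root mean square difference of 0.90. It had 0 counts in all 3 controls and 264, 1818 and 794 counts in injured replicates 1, 2 and 3, the same order as Mmp12 with a narrower range. The summed injured counts of ENSRNOG00000059050 were at least 888-fold higher than the controls, against a floor of 3 counts over the group. This bound too leaves out the spread between animals. The gene nearest to Spp1 was ENSRNOG00000038286, at 0.36. Its control libraries 1, 2 and 3 had 0, 9 and 2 counts and its injured libraries 59, 660 and 212 counts, with replicate 2 highest in both groups as for Spp1. The fitted log2 fold change of 6.32 had a standard error of 1.26, close in size to that of Spp1. Neither gene passed the test. On this measure Spp1 was place 4 from Mmp12 and Mmp12 place 70 from Spp1. No symbol was matched to either identifier.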

How the data were processed

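Polyadenylated RNA of 6 esophagus libraries was sequenced. The authors deposited raw whole-number counts per Ensembl gene. Per the submitters' processing notes, the genome build was Rnor_6.0, with HISAT2 2.2.1 and HTSeq 0.6.1 among the tools listed, whose roles are not described. The handling of multiply mapped reads, of strand and the annotation used are not given in the sources at hand, so reads shared with related metalloproteinase genes could not be traced.

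Genes were filtered with filterByExpr (minimum count 10, minimum total 15), which kept 14481 of 32623 genes. They were scaled by trimmed mean of M-values (TMM) and fitted by edgeR 4.0.16 in R 4.3.3 (quasi-likelihood, group only), with Benjamini-Hochberg adjustment over all tested genes and a threshold of 0.05. Each standard error is the size of the log2 fold change over the square root of its F statistic. Log2 CPM used a prior count of 2. The fit was tested on simulated data. Alternatives were other scalings and filters, DESeq2 1.42.0, limma-voom 3.58.1, the replicate block, other prior counts and leaving out each library. Deviations of same-numbered libraries from their group means correlated across genes at 0.37, 0.37 and 0.10 for numbers 1 to 3, each above the limit of 0.1 (the last 0.104). Blocked counts are therefore given. Libraries of unlike number were not compared in this way, so whether the numbers pair the animals is not shown, and no label explains them. P-values set the difference between the groups against the spread between animals within a group. The main fit, by group only, leaves the replicate number out.

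The members and lists were chosen with earlier results of these data known. The rule for named genes was the 2 members and, without symbols, the 1 gene nearest to each over all 6 libraries. The 9 gene lists (88 symbols: metalloproteinases, their inhibitors, elastic fibre genes, the osteopontin family, its receptors and modifiers, macrophage genes) and the cell type markers were not tested, since no identifier matched a symbol.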

Additional observations from a re-analysis of the deposited data

How the results depend on the processing

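The log2 fold changes kept their direction under all 14 alternatives, between 9.23 and 14.42 for Mmp12 and between 5.50 and 6.87 for Spp1. The groups do not overlap in either gene, so a change of direction was hardly possible. The Mmp12 value of 14.42 came without control replicate 3, which leaves 0 control counts and makes the fitted value depend on the prior count. Each gene passed the threshold in 8 of the 14 alternatives. Beside the 5 fits without 1 library, limma-voom lost both calls (adjusted p 0.32 for Mmp12 and 0.15 for Spp1). The highest adjusted p of Spp1 over the alternatives, 0.20, came from edgeR without injured replicate 3.

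DESeq2 called 756 genes higher and 641 lower, limma-voom called 55 higher, and the replicate block gave 287 higher and 259 lower. Over the fits without 1 library, 2 to 134 genes were called higher and 0 to 200 lower. The count of 0 came without injured replicate 3 (edgeR), where 999 genes were lower at an unadjusted p under 0.05. The cause of these shifts was not tested.

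Spp1, place 11 by likeness to Mmp12, was place 19 with a prior count of 0.5, 6 with a prior count of 5, 6 among genes with at least 1 CPM in 3 libraries, 4 over all 6 libraries, 329 by shape alone and 20 to 230 without 1 injured library. Mmp12, place 104 by likeness to Spp1, was 327 by shape alone and 132 to 367 without 1 injured library. The log2 ratio of Spp1 to Mmp12 in each injured library did not leave its counting interval with a prior count of 2. It was not recomputed per coding length, for want of lengths. Depth limits Mmp12 in controls, and 3 animals per group limit every comparison.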
